A study of Mus musculus with 2 samples.

Results

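The 38 genes described here were the named Hox genes of the HoxA, HoxB, HoxC and HoxD clusters, taken from a list of symbols and matched by symbol, among 43346 genes in the deposited tables, of which 21474 were protein coding. The rule used gene names and no expression value. HoxA and HoxB had 10 members each, and HoxC and HoxD had 9 each. Kidney RNA came from a female of the inbred strain C57BL/6J, aged 10 weeks and adult, with no treatment named in the labels, and its polyadenylated part was sequenced. There was 1 group, made of 2 libraries from 1 tissue sample, which the labels call technical replicates 1 and 2 of biological replicate 1. They are called library 1 and library 2 here, and work on library 2 is dated to May 2015. No genotype, treatment or second tissue was compared, so every difference is between libraries, every SD (n = 2) is technical, and nothing is known of the spread between animals.

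Hox genes encode transcription factors that bind DNA through the homeodomain and give cells along the body axis their positional identity. In mammals they lie in 4 clusters, and genes at the same relative place in different clusters form a numbered paralogue group. The numbers run from the anterior end of the body axis to the posterior end, and genes of a cluster are transcribed in 1 direction. In the embryo, group 11 genes are needed for the metanephric kidney to be induced, and group 10 genes act in its stroma. Expression from the clusters is held in or out of transcription by Polycomb and Trithorax proteins, and Hox proteins bind DNA together with TALE cofactors of the Pbx, Meis and Pknox families.

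All 38 members carried the codons of the DNA-recognition helix of the homeodomain, found by a search for the conserved tryptophan-led core of that helix in the reading frame of a coding transcript (GENCODE M21, GRCm38). The same 60-base window around it is printed for 3 of the 5 members of highest mean level and for 1 member without a count, because it shows what a sequencing read has to tell apart. The 18 bases in capitals encode the helix core.

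Hoxd8 (chr2:74706645-74706704, plus strand): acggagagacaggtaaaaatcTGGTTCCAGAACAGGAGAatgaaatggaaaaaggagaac

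Hoxa10 (chr6:52232554-52232613, minus strand): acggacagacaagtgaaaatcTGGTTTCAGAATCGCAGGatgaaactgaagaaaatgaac

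Hoxb9 (chr11:96274779-96274838, plus strand): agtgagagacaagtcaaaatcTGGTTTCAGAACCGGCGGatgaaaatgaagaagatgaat

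Hoxd13 (chr2:74670050-74670109, plus strand): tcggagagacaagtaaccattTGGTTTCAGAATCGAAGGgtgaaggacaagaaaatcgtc

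Even in this conserved window no 2 members were identical. The closest pair, Hoxa3 and Hoxb3, differed at 2 of 60 bases, and Hoxb8 differed from Hoxd8, and Hoxa10 from Hoxc10, at 5 bases each. The median number of mismatches was 10.5 over the 40 pairs within a paralogue group and 18 over the other pairs. The capitals took 29 different forms over the 38 members. Over whole transcripts, 9 members shared a stretch of at least 100 bases at 95% identity or more with a transcript of another gene. For 8 of these the partner was an overlapping gene of the same cluster, so the overlap sets how reads are split between them. Hoxc9 was the exception: it shared 103 bases with Kcnj10 and with Chrnb3, among other genes outside the clusters.

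Levels are in TPM, a share of the library that is corrected for length, so that genes can be compared. At TPM 1 or more there were 19 members (50%) in library 1, against 42.0% of protein-coding genes. In library 2 there were 27 (71.1%), against 57.4%, and the same 19 passed in both libraries (50%), against 41.7%. The other 8 members passed in library 2 alone, and 11 passed in neither. Among the members with a mean of TPM 1 or more, the median of the mean was 6.33 TPM, against 10.1 TPM over 11872 protein-coding genes past the same limit. The Hox genes together took 175 TPM in library 1 and 370 TPM in library 2, from 10888 and 10192 expected counts.

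**Figure D1:**
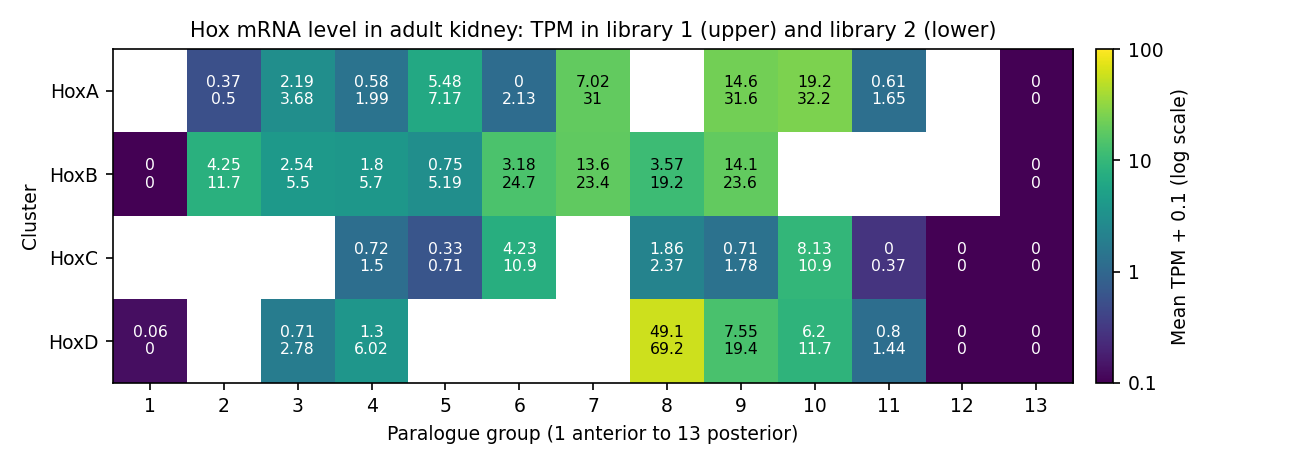
TPM of each Hox gene in library 1 (upper number) and library 2 (lower number) by cluster (rows) and paralogue group (columns), with colour for the mean TPM + 0.1 on a log scale; an empty cell has no gene or one not analysed here. Hoxd8 has the highest value in each library, and groups 12 and 13 are at 0 in both.

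Members of the posterior groups 9 to 13 split sharply by group number. The 6 genes of groups 12 and 13 had no count in either library: Hoxa13, Hoxb13, Hoxc12, Hoxc13, Hoxd12 and Hoxd13, which act in digits, hindgut and genital tract, tail, hair and nail. With Hoxb1 these made 7 members at 0 in both libraries (18.4%), against 23.9% of protein-coding genes. For these 7 genes a count of 0 allows up to 3 counts, equal to 0.0415 to 0.116 TPM in library 1 and 0.0778 to 0.217 TPM in library 2. The deposited TPM intervals reach higher for Hoxa13, to 0.488 and 0.880 TPM, and for Hoxb1, to 0.181 and 0.324 TPM.

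Group 11, the group needed for kidney induction in the embryo, was low. Hoxa11 stood at 0.61 TPM in library 1 and 1.65 TPM in library 2. Hoxd11 had 0.80 and 1.44 TPM, and Hoxc11 had no count in library 1 and 11.0 counts (0.37 TPM) in library 2. The group summed to 1.41 and 3.46 TPM, 0.804% and 0.936% of the Hox total.

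Groups 10 and 9 were high by comparison. Hoxa10, a group 10 gene of the HoxA cluster that is also known for its part in uterine development, stood at 19.2 TPM in library 1 and 32.2 TPM in library 2. Hoxc10, known from lumbar motor neurons, had 8.13 and 10.9 TPM, and Hoxd10 had 6.20 and 11.7 TPM. The 3 genes summed to 33.5 and 54.7 TPM, 19.1% and 14.8% of the Hox total. In group 9, Hoxa9, a regulator of blood stem cells, had 14.6 and 31.6 TPM. Hoxb9 had 14.1 and 23.6 TPM and Hoxd9 had 7.55 and 19.4 TPM, while Hoxc9, which patterns thoracic motor neurons, had 0.71 and 1.78 TPM. Within group 9 the HoxC gene was thus the lowest in each library, and its deposited TPM intervals (0.549 to 1.03 and 1.37 to 2.37) lay below those of the other group 9 genes. Across the posterior class the sum was 71.8 TPM in library 1 and 135 TPM in library 2 (mean 103 ± 44.4, SD, n = 2), from groups 9 to 11 alone.

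Central members (groups 4 to 8) held the most transcripts: 93.5 and 211 TPM (mean 152 ± 83.2, SD, n = 2), 53.3% and 57.1% of the Hox total. Hoxd8 was the highest Hox gene in each library, with 49.1 TPM (3572 counts) in library 1 and 69.2 TPM (2093 counts) in library 2. It ranked 884 and 1531 among the 21474 protein-coding genes. Its deposited TPM intervals, 46.4 to 49.7 and 60.9 to 70.6, overlapped those of no other Hox gene in the same library. The other group 8 genes were lower: Hoxb8, known from myeloid cells, had 3.57 and 19.2 TPM, and Hoxc8, known from brachial motor neurons, had 1.86 and 2.37 TPM.

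In group 7, Hoxa7 stood at 7.02 TPM in library 1 and 31.0 TPM in library 2, and Hoxb7, whose regulatory sequence is widely used to mark the ureteric bud and collecting duct, had 13.6 and 23.4 TPM. The order of this pair therefore turned between the libraries. In group 6, Hoxb6 had 3.18 and 24.7 TPM, Hoxc6 had 4.23 and 10.9 TPM, and Hoxa6 had no count in library 1 and 24.0 counts (2.13 TPM) in library 2. Library 1 allows up to 0.143 TPM for Hoxa6 at its count of 0. Groups 5 and 4 were lower. Hoxa5, which acts in lung and skeletal patterning, led group 5 with 5.48 and 7.17 TPM, above Hoxb5 with 0.75 and 5.19 TPM and Hoxc5 with 0.33 and 0.71 TPM. In group 4, Hoxb4, studied for its action on blood stem cells, had 1.80 and 5.70 TPM. Hoxd4 had 1.30 and 6.02 TPM, Hoxa4 had 0.58 and 1.99 TPM, and Hoxc4 had 0.72 and 1.5 TPM.

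Anterior members (groups 1 to 3) made the smallest share, with 10.1 and 24.1 TPM (mean 17.1 ± 9.91, SD, n = 2), 5.77% and 6.53% of the Hox total. Hoxb2, which patterns the hindbrain, led them with 4.25 TPM in library 1 and 11.7 TPM in library 2. Its group 2 paralogue Hoxa2, which patterns the second branchial arch, had 0.37 and 0.50 TPM. In group 3, Hoxb3 had 2.54 and 5.5 TPM, Hoxa3, needed for the thymus and parathyroid glands, had 2.19 and 3.68 TPM, and Hoxd3 had 0.71 and 2.78 TPM. Of the group 1 genes analysed, Hoxb1, known from the fourth rhombomere, had no count and Hoxd1 had 3 counts in library 1 (0.06 TPM) and none in library 2. Hoxc5, Hoxa2 and Hoxc11 were the 3 highest of the 11 members with a mean under TPM 1, which ranged in mean from 0 to 0.520 TPM.

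**Figure D2:**
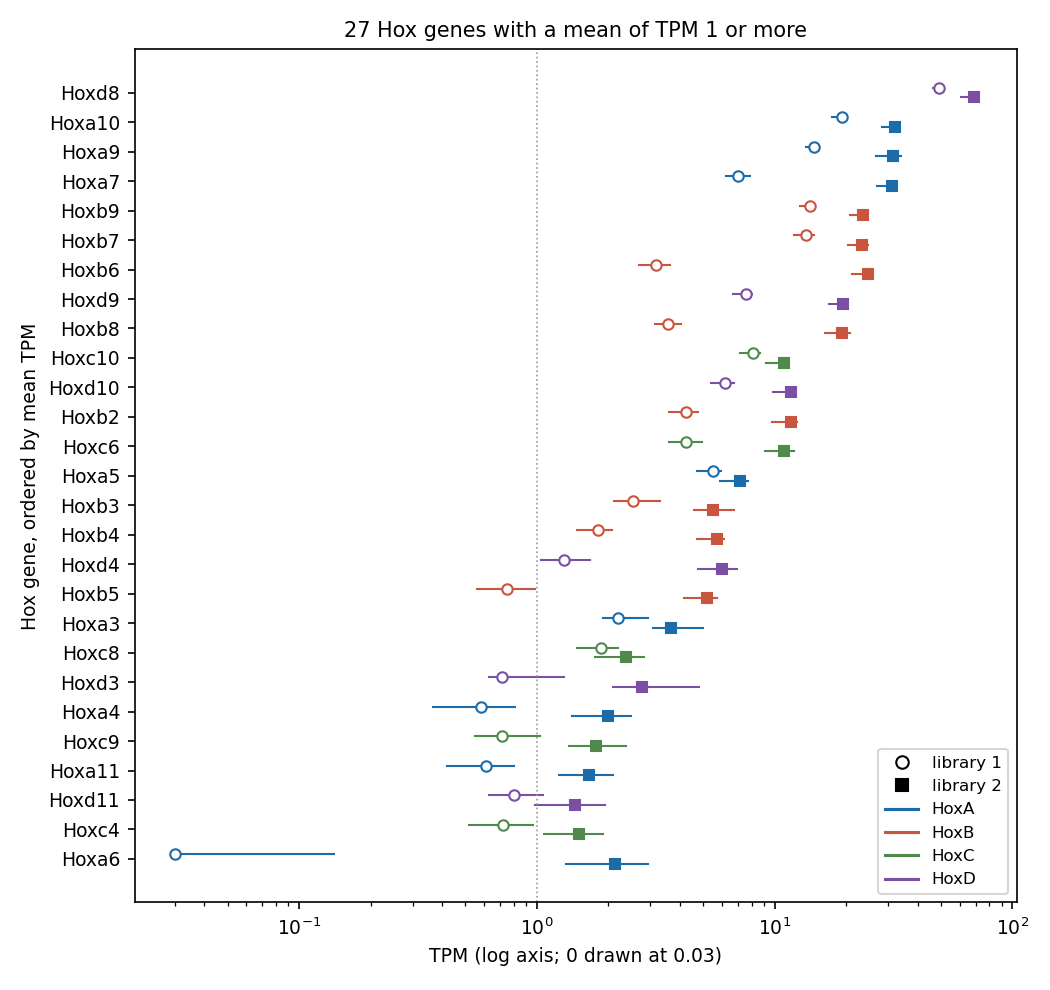
TPM (log axis) of the 27 Hox genes with a mean of TPM 1 or more, in library 1 (open circles) and library 2 (filled squares), with lines for the deposited TPM intervals and colour for the cluster. Hoxd8 stands above the others in each library, and all 27 genes have a higher TPM in library 2. Without mitochondrial genes in the sum this does not hold for every one of them, as with Hoxd8 at 193 and 109 TPM. Over all 38 Hox genes, those at 0 in both libraries included, 15 are then higher in library 2.

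The order of the members was similar in the libraries, but neighbours in it often changed places. Spearman's rho of the TPM values over the 38 members was 0.94, a description of 2 technical replicates that counts the shared zeros. Among the 26 pairs of neighbours in the order by mean TPM, 15 had the opposite order in 1 of the libraries. Deposited intervals overlapped in at least 1 library for 22 pairs and in both for 8. Hoxb9 and Hoxb7 were such a pair, as were Hoxb2 and Hoxc6. The sources used here do not give the confidence level of these intervals. Because the tissue was sequenced in bulk, a low level from few cells cannot be told apart from a low level in many cells.

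By cluster, HoxA, HoxB and HoxD held similar sums and HoxC less. HoxA summed to 50 TPM in library 1 and 112 TPM in library 2 (mean 80.9 ± 43.7, SD, n = 2). HoxB summed to 43.7 and 119 TPM (81.4 ± 53.2) and HoxD to 65.7 and 110 TPM (88.1 ± 31.6). HoxC had 16 and 28.5 TPM (22.2 ± 8.85). The first 3 did not differ beyond the spread between libraries, and their order changed, with HoxD the highest in library 1 and HoxB in library 2, whereas HoxC lay below the others in each library. The HoxC value rested mostly on Hoxc10 and Hoxc6. Hoxc10 overlaps Hoxc5 on the same strand, and without the members with such overlaps HoxC had a mean of 12.2 TPM.

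Along each cluster the mean level was 0 at the posterior end, highest at Hoxa10, Hoxb9, Hoxc10 or Hoxd8, and lower towards the anterior end, with exceptions. Of these maxima only Hoxd8 stood clear of its cluster in each library. In library 2 the interval of Hoxa10 overlapped that of Hoxa9. There Hoxb6, at 24.7 TPM, lay above Hoxb9, and Hoxc6 and Hoxc10 had 10.9 TPM each. HoxA spans 98.5 kb (chr6:52162417-52260880), HoxB 174 kb (chr11:96194316-96368256), HoxC 116 kb (chr15:102921103-103036852) and HoxD 96.8 kb (chr2:74668310-74765142), in GRCm38 coordinates. In HoxD the values went from 0 at Hoxd13 and Hoxd12 through 0.80 and 1.44 TPM at Hoxd11 to the maximum at Hoxd8. In HoxB the gene next to the silent Hoxb13 is Hoxb9, already at 14.1 and 23.6 TPM. In each library Hoxa6, Hoxa4, Hoxb8, Hoxb5, Hoxc9 and Hoxc5 lay below both of the members next to them, and Hoxb2 lay above Hoxb3. No HoxD gene between Hoxd11 and Hoxd1 lay below both of its neighbours.

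**Figure D3:**
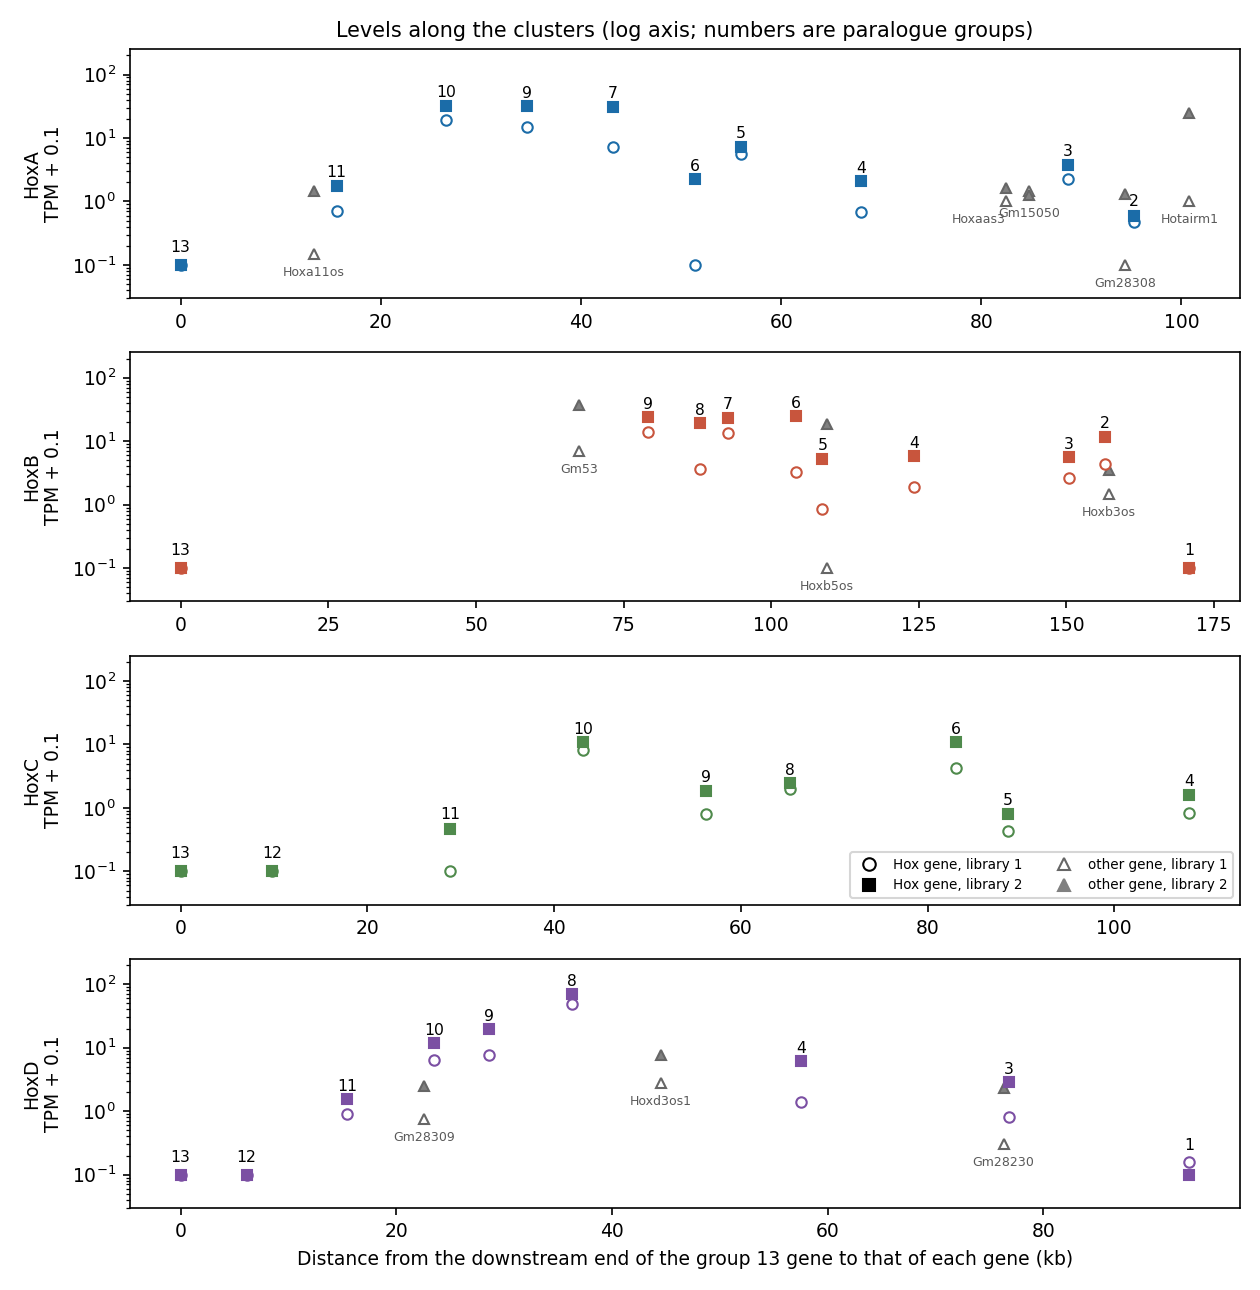
TPM + 0.1 (log axis) along each cluster against distance in kb from the downstream end of the group 13 gene. Circles and squares are Hox genes in libraries 1 and 2, numbered by paralogue group, and triangles are other genes at TPM 1 or more in either library, without short RNAs typed as miscellaneous. In HoxD the level climbs from 0 at groups 13 and 12 to 49.1 and 69.2 TPM at group 8.

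Transcripts from within and beside the clusters were uneven as well. Hoxb5os, an antisense RNA over Hoxb5 and Hoxb6, had no count in library 1 and 124 counts (18.6 TPM) in library 2, at least 30.1-fold higher. Gm53, a long noncoding RNA upstream of Hoxb9, had 6.88 and 37.1 TPM, and Hotairm1, antisense to the cluster beside Hoxa2, had 0.93 and 24.5 TPM. The counts of Hotairm1 were 15 and 59.2, with a log2 ratio of 1.48 on the scaled counts, a smaller gap than in TPM. These 3 transcripts have 55.7%, 58.0% and 62.8% GC, and over all genes the ratio between the libraries climbed with GC content. The median log2 ratio was 3.47 for genes of 55 to 60% GC and 5.03 for those of 60% or more. On the scaled counts, Gm53 and Hotairm1 lay below the medians for their GC content. Hoxb5os, of the lowest GC content among the 3, lay above its median and had the largest ratio. The part of GC content in these gaps was not tested. Hoxd3os1 had 2.68 and 7.62 TPM and Hoxb3os 1.36 and 3.47 TPM. Hotair, an RNA of the HoxC cluster known for binding Polycomb proteins, had 1.00 count in library 1 and none in library 2, and Hottip, beyond Hoxa13, had none in either. The homeobox genes Evx1 and Evx2, at the posterior ends of HoxA and HoxD, also had no count in either library. Of the coding neighbours on the far sides, Mtx2 beside HoxD had 58.2 and 47.5 TPM and Skap2 beside HoxA 17.4 and 37.5 TPM. The posterior neighbours of HoxA and HoxD were thus without a count, and these 2 anterior neighbours were not. Beside HoxB, Ttll6 on the posterior side had 0 and 0.04 TPM and Skap1 on the anterior side 0.30 and 1.22 TPM. HoxC had the other order, with Calcoco1 on the posterior side at 15.8 and 30.8 TPM and Smug1 on the anterior side at 2.98 and 6.31 TPM. The microRNA genes of the clusters are too short for these libraries, and their listed 0 is no measurement. Exons of 9 members overlap another gene on the same strand and exons of 9 overlap one on the opposite strand, 15 members in all. The sources used here do not give whether counting used the strand, so sense and antisense reads of these members cannot be told apart.

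Promoters were compared for the 22 members with an entry in the RefSeq promoter table (GRCm38.p6), since silent and transcribed members lie side by side. CG dinucleotides, which both strands hold alike, were counted from 250 bases before to 50 after the start; 94.6% of all 32851 such windows hold at least 1. The 24 Hox windows held a median of 14.5 CG, against 7.0 over all windows, and ranged from 4 to 45. The 4 windows of members without a count (Hoxa13, Hoxb1, Hoxd12 and Hoxd13) had a median of 25, and the 18 windows of members at a mean of TPM 1 or more had 14.5, with wide overlap. The highest Hox gene and a silent gene of the same cluster illustrate the range, with the 250 bases before the start shown and each CG in capitals.

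Hoxd8 (chr2:74704365-74704614, plus strand): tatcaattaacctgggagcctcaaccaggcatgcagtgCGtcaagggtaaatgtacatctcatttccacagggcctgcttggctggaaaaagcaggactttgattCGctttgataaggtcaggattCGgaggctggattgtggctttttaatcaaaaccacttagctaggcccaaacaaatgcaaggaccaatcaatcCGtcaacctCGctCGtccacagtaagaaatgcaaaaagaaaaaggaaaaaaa

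Hoxd13 (chr2:74667975-74668224, plus strand): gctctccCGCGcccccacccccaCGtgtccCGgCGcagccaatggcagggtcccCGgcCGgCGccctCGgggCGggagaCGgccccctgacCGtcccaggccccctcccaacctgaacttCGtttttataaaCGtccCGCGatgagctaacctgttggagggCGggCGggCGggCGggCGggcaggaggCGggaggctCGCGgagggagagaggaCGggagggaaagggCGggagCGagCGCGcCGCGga

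The full window held 6 CG at Hoxd8, more than in 43.6% of all windows, and 37 CG at Hoxd13, more than in 94.4%. Hoxa9 was transcribed with 4 CG in its window, and Hoxb1 had no count with 10, so the number did not separate silent from transcribed members. No methylation or chromatin was measured.

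The libraries themselves differed in composition, which sets how Hox values compare between them. Library 1 held 28263730 expected counts and library 2 held 20720537, and mitochondrial genes with their nuclear copies made up 74.5% of the TPM sum of library 1 and 36.5% of that of library 2. Without these genes the Hox total was 689 TPM in library 1 and 583 TPM in library 2, the opposite order, and 16 members were higher in library 1 and 15 in library 2. As checks of the tissue, 19 of 20 marker genes of the nephron and collecting duct were at TPM 1 or more in both libraries (sums of 1576 and 12905 TPM). Of 11 markers of endothelium, stroma and leukocytes 6 were so, and of 12 of adrenal, adipocyte, skeletal muscle and nerve 1 was, with sums of 2.80 and 9.59 TPM. The 3 urothelium markers (Upk1a, Upk3a and Krt5) summed to 0.0700 TPM in library 1 and 11.1 TPM in library 2. All 3 were called higher in library 2 by the test given below, against 35.7% of all genes. Their transcripts have 55.5 to 57.3% GC, and genes of 55 to 60% GC had a median log2 ratio (library 2 over library 1) of 3.47. The ratios of Upk1a, Upk3a and Krt5 were 7.03, 4.42 and 6.11, on 0, 2 and 0 counts in library 1. The part of GC content in them was not tested. The part of urothelium in the Hox values was not tested.

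A two-sided exact conditional binomial test on rounded counts, with library sizes scaled by TMM and Benjamini-Hochberg adjustment over all 15553 genes tested, compared library 2 with library 1. It compares 2 libraries and not conditions, and its p-values cover counting error only. Calls required a ratio of 2-fold or more either way (log2 of 1) beside an adjusted p below 0.05. Of the 38 members, 30 had the 10 counts needed. The test called 4 (13.3%) higher in library 2, Hoxa6, Hoxb5, Hoxb6 and Hoxc11, against 35.7% of all genes. It called 4 (13.3%) higher in library 1, Hoxa9, Hoxc8, Hoxd8 and Hoxd11, against 25.2%. Each share lay below that of all genes, and the median log2 ratio of library 2 over library 1 was -0.18 for the members against 0.12 for all genes.

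Ratios of single members were often resolved by their counts. Hoxd8, with 3572 counts in library 1 and 2093 in library 2, had a log2 ratio of -1.23 ± 0.04 (counting SE; adjusted p = 3.6e-218, exact binomial test). Hoxa9, with 1347 and 772 counts, had -1.26 ± 0.07 (adjusted p = 1.2e-86, exact binomial test). Their deposited TPM went the other way. With mitochondrial genes out of the sum, Hoxd8 had 193 and 109 TPM and Hoxa9 57.2 and 49.7 TPM, in the direction of the counts. Hoxb6, with 174 and 534 counts, had 1.16 ± 0.13 (adjusted p = 4.3e-22, exact binomial test). Hoxa6 was at least 5.83-fold higher in library 2 on the scaled counts, against the limit of its 0 counts in library 1. Hoxc11 was at least 2.67-fold higher. Hoxd9, with 453 and 621 counts, had a log2 ratio of -0.00 ± 0.09 under TMM, which depended on the scaling: it was 0.90 with total counts and -5.35 with the GC trend removed, where Hoxd9 was called higher in library 1. With total counts in place of TMM, 11 members were called higher in library 2 and 0 in library 1 (2 at an unadjusted p under 0.05 in the exact binomial test), against 49.4% and 4.62% of all genes, since that scaling raises the median log2 ratio of all genes from 0.12 to 1.03.

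Over all genes the ratio between the libraries climbed with the GC content of the transcript, and the Hox genes lay under that trend. Genes of 50 to 55% GC had a median log2 ratio of 1.05, and the 16 members in that range had -0.18. Genes of 55 to 60% had 3.47 and the 7 members there 0.41. Below 45%, all genes had -1.47 and the 2 members, Hoxa10 and Hoxd11, had -0.85. In all, 25 of the 30 members tested lay below the trend, although their median GC content, 53.4%, was above the 50% of all genes tested. The share of all genes below the trend was not counted, and their median log2 ratio with the trend removed was -0.02. Hoxd9, with a transcript of 61.0% GC, had a ratio of -0.00, against a median of 5.03 for genes of 60% GC or more, and Hoxd8, at 55.8%, had -1.23. Across the 30 members the ratio still followed GC content, with Spearman's rho of 0.68 and Pearson's r of 0.50, a description over genes of the same libraries.

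With the trend removed before the test, 0 members were called higher in library 2 (2 at an unadjusted p under 0.05 in the exact binomial test), against 11.4% of genes. Another 20 (66.7%) were called higher in library 1, against 10.9%, and the median log2 ratio was -1.23 against -0.02. Hoxb5 and Hoxb6 changed from higher in library 2 to higher in library 1, with log2 ratios of -1.18 and -3.18. The step took the GC content of 1 transcript per gene, the leader by mean TPM. For Hoxb6 this was Hoxb6-201 (58.7%), which held 0% of the gene's TPM in library 1. Hoxb6-202, with 100% there, has 54.9% GC, and its use was not tried. The transcripts of the members are also unevenly built. Up to the midpoint their median GC content was 58.6% and beyond it 47.3%, a median difference of 11.1 points, against 5.95 points for all genes. Hoxd8 had 71.0% and 40.6%, and Hoxd9 had 70.1% and 51.9%. The part of this layout in the ratios was not tested.

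**Figure D4:**
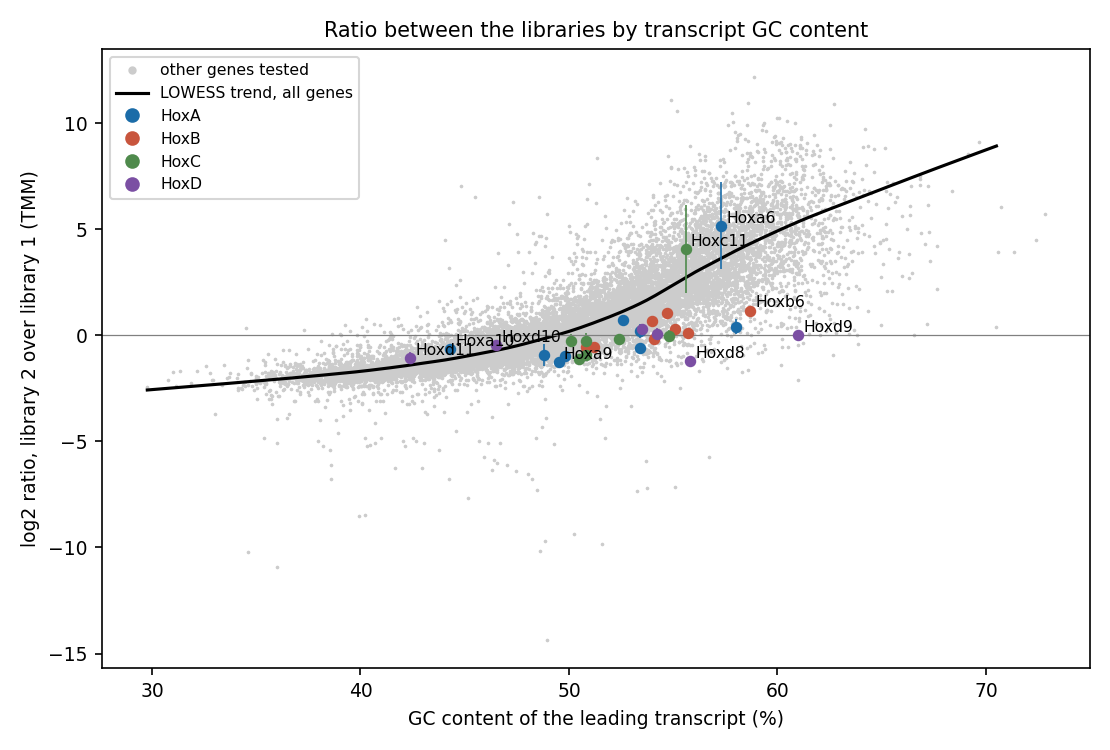
Log2 ratio of library 2 over library 1 (TMM scaling) against the GC content of each gene's leading transcript, for Hox genes (coloured by cluster, bars are counting SE) and other tested genes (grey), with the LOWESS trend over all genes. Most Hox genes lie below the trend, with Hoxd9 near 0 at 61.0% GC.

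The libraries assigned Hox reads to different transcripts of the same gene. Of the 27 members with a mean of TPM 1 or more, 20 had at least 2 annotated transcripts and TPM above 0 in each library. The leading transcript was the same in 12 of them and differed in 8: Hoxa9, Hoxa11, Hoxb5, Hoxb6, Hoxc4, Hoxc8, Hoxd3 and Hoxd4. The leader was a coding transcript in 13 of the 20 in library 1 and in 16 in library 2. Leaders were not counted over all genes, so whether these numbers are particular to Hox genes is not known. These shares are the deposited estimates and rest on few counts in low genes.

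Hoxa10 was the most abundant member with a noncoding leader. The noncoding Hoxa10-203 held 99.7% of its TPM in library 1 and 62.3% in library 2. The coding Hoxa10-201 held 0.290% and 23.2%, and the coding Hoxa10-202 held 0% and 9.02%. The coding share of the gene was thus 0.313% in library 1 and 32.2% in library 2. Hoxa10-203 (1710 bases, 44.3% GC) shares 1582 bases, of 43.3% GC, with Hoxa10-202 (2565 bases, 53.1% GC). The 128 bases that only Hoxa10-203 has form an exon upstream of the shared one, at 57.0% GC, and the 976 coding bases of Hoxa10-202 outside it are at 69.3% GC. Reads that decide between them therefore fall in stretches such as these 120-base pieces (GENCODE M21, GRCm38), printed to show that difference, with CG dinucleotides in capitals.

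Hoxa10-203 (chr6:52233201-52233320, minus strand): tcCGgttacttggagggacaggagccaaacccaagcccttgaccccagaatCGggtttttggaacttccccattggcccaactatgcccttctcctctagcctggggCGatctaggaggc

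Hoxa10-202 (chr6:52234387-52234506, minus strand): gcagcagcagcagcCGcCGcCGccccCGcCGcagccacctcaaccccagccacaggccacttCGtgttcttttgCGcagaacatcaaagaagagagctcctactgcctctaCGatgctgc

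The stretch of Hoxa10-202 is 63.3% GC with 8 CG. The transcripts of Hoxd11 differ even more in base composition. The coding Hoxd11-202 has 68.8% GC and held 0% of the gene's TPM in library 1 and 45.6% in library 2, while the noncoding Hoxd11-201, at 42.4% GC, held 100% and 54.4%. In both genes the coding transcripts, of higher GC content, had a larger share in library 2 than in library 1, on 78.3 and 50.9 counts in all for Hoxd11.

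The pattern of shares recurred in other members, but not in every one. Hoxb6-202 (54.9% GC) held 100% in library 1 and 28.6% in library 2, and Hoxb6-201 (58.7% GC) 0% and 71.4%. All 1321 bases of Hoxb6-201 also lie in Hoxb6-202, so no base is particular to Hoxb6-201. Only Hoxb6-202 has bases of its own, 643 of them at 47.1% GC. Hoxb5-202, which retains an intron, held 75.1% and 12.4%, and Hoxc8-202, also with a retained intron, 67.2% and 26.4%. Hoxd3-206, another of this kind, held 100% and 23.2%. The remaining shares of these genes were on coding transcripts. In Hoxa9 the coding share was lower in library 2, at 95.7% and 58.8%. The coding Hoxa9-201 (49.5% GC, 3226 bases) held 95.8% and 35.5%, and the coding Hoxa9-202 (59.3% GC, 851 bases) 0% and 23.3%. The noncoding Hoxa9-203 (51.5% GC, 678 bases) held 0% and 37.9%. Hoxa9-205 (52.0% GC, 2286 bases), with a retained intron, held 4.25% and 3.31%. Of these transcripts with higher GC content than Hoxa9-201, Hoxa9-202 and Hoxa9-203 had a larger share in library 2 and Hoxa9-205 a smaller one. Hoxd8-203 (52.2% GC, 557 bases), of the lowest GC content in its gene, held 0% and 23.1%. Hoxd8-202 (58.4% GC) held 9.89% and 14.3%, and Hoxd8-201 (55.8% GC) 90.1% and 62.6%. No test of the shares was made. Hoxa7 was led in each library by Hoxa7-205, annotated as a target of nonsense-mediated decay, with 79.4% and 72.4%. Hoxa11 was assigned wholly to the noncoding Hoxa11-202 in library 1 and wholly to the coding Hoxa11-201 in library 2, from 36 and 57 counts. The deposited posterior means give Hoxa11-202 64.9% and 21.3%, so the complete switch is not in both estimates.

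**Figure D5:**
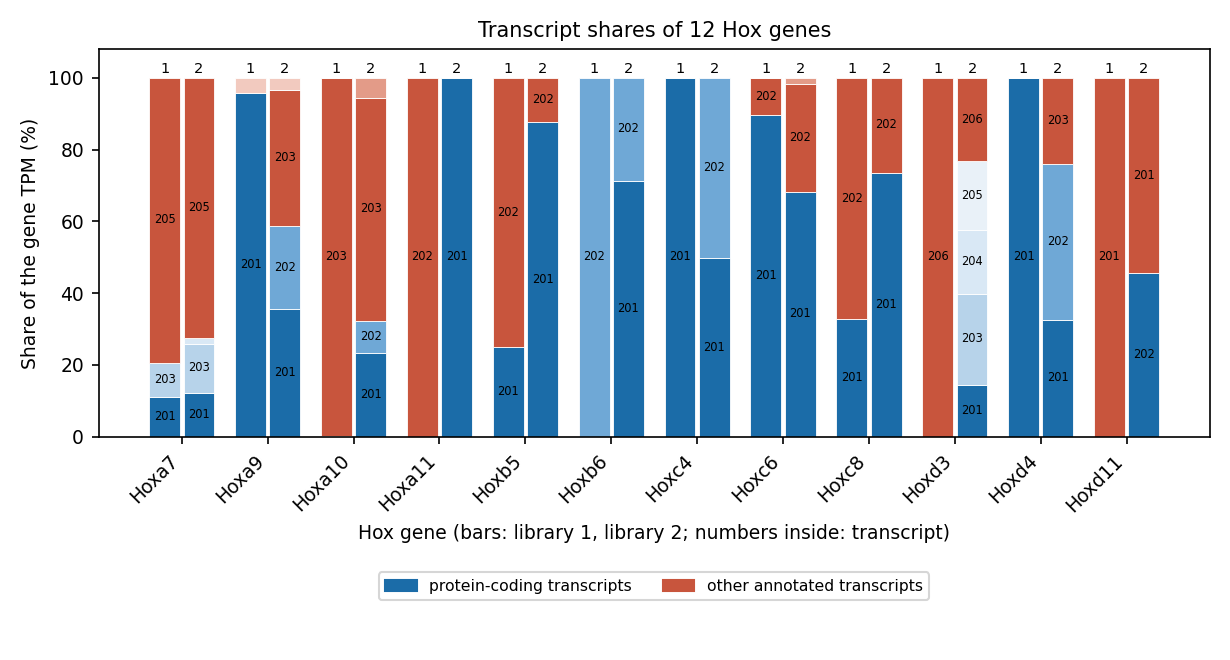
Share of each annotated transcript in the TPM of its gene (%), for 12 Hox genes in library 1 (left bar) and library 2 (right bar), with coding transcripts in blue and others in red. In Hoxa7, Hoxa10, Hoxa11, Hoxb5, Hoxc8, Hoxd3 and Hoxd11 the coding share is larger in library 2, and in Hoxa9, Hoxc6 and Hoxd4 it is smaller.

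Among 5460 coding genes at TPM 1 or more in both libraries with both coding and other transcripts (retained introns and targets of nonsense-mediated decay included), the coding share was at least 20 points lower in library 1 in 20.3% and at least 20 points lower in library 2 in 5.16%. Of the 10 members that could be counted, 2 were lower in library 1 (Hoxa10 and Hoxc8) and 3 in library 2 (Hoxa9, Hoxc6 and Hoxd4). The limit of TPM 1 left out Hoxa11, Hoxb5, Hoxd3 and Hoxd11, which were under it in library 1. On few counts, each of them had a smaller coding share in library 1, so the split of the counted members leaves out that direction. The median coding share of the 10 counted members was 90.0% in library 1 and 74.7% in library 2, against 94.9% and 95.1% over all 5460. This measure was chosen after the isoform values were seen.

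The TALE cofactors, with which Hox proteins bind DNA, were present in the same libraries. Of the 9 genes, 6 were at TPM 1 or more in both libraries, against 41.7% of protein-coding genes. Meis2 stood at 10.1 TPM in library 1 and 11.9 TPM in library 2, and Pbx2 had 2.83 and 18.3 TPM. Of 8 tested, 3 were called higher in library 2 (Meis3, Pknox1 and Pknox2) and 1, Meis2, in library 1, against 35.7% and 25.2% of all genes, and their median log2 ratio was 0.09. Among the partners of Hox11 proteins and nephron progenitor genes, Eya1, Six2, Gdnf and Osr1 were under TPM 1 in both libraries. Six2, which marks nephron progenitors in the embryo, had no count in either library. Sall1 (6.52 and 22.3 TPM), Itga8 (7.76 and 7.25 TPM) and Wt1 (4.97 and 8.79 TPM) were the 3 highest. Of 6 tested, 1 was called higher in each library, Pax2 in library 2 and Itga8 in library 1, against the same shares. Of the Cdx genes, which activate Hox genes in the embryo, Cdx1 and Cdx2 had no count and Cdx4 had 0.57 and 0.62 TPM.

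The listed genes that keep Hox clusters silent or active all reached TPM 1 in 1 or both of the libraries. In both libraries 8 of 16 Polycomb genes and 5 of 7 Trithorax and demethylase genes did, against 41.7% of protein-coding genes. Of 16 Polycomb genes 9 were called higher in library 2 and 5 in library 1, with a median log2 ratio of 1.56, against 35.7% and 25.2% of all genes and a median of 0.12. Bmi1 stood at 36.4 TPM in library 1 and 21 TPM in library 2, Suz12 had 27.7 and 16.9 TPM, and Ezh1 had 7.59 and 29.5 TPM. The calls split by GC content: the 5 genes called higher in library 1 (Ezh2, Eed, Suz12, Rnf2 and Bmi1) had transcripts of 36.6 to 47.8% GC, and the 9 called higher in library 2 had 54.2 to 60.7%. Of 7 Trithorax and demethylase genes, 3 were called higher in library 2 and none in library 1, against 35.7% and 25.2% of all genes, with Ash2l (9.78 and 20.4 TPM), Rbbp5 (10.5 and 15.2 TPM) and Wdr5 (5.07 and 20.6 TPM) the highest.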

How the data were processed

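Polyadenylated RNA of 1 kidney sample was measured in 2 libraries, one group. Per the file headers, the authors deposited expected counts (estimated reads, not normalized), TPM, FPKM and the percent of each gene's TPM on each transcript, with posterior means and TPM interval bounds. Per the text deposited with the tables, the assembly was mm10 and the annotation M4. For the aligner, the counting tool and its strand setting: not given in the sources used here. GENCODE M21, on the same assembly, gave names, transcripts, GC content and coordinates; 42462 of 43346 identifiers matched.

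Library sizes were scaled by TMM (edgeR 4.0.16) on genes with at least 10 counts; with 1 library a side there was no replicated count model. Expected counts were rounded and tested by a two-sided exact conditional binomial test (scipy 1.17.1), with log2 ratios on a prior count of 0.5. The test and the GC step (LOWESS, span 0.2, statsmodels 0.14.6, genes with at least 100 counts) were tested on simulated data. Alternatives were DESeq2 1.42.0 size factors, total counts, no count filter, posterior means, FPKM, other TPM limits, TPM without mitochondrial genes and 11 nuclear copies (blastn 2.17.0), and each library alone. Where a count of 0 is given a limit, 3 counts were allowed; limits and counting SEs cover counting error only.

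All members are reported: those at a mean of TPM 1 or more by library and the rest by range with the highest 3 named, with the 2 leading transcripts where they carry a result. The 3 top genes and those under TPM 1 in both libraries were named for each list. Members, lists and rules were chosen with earlier results of these data known. The window of the helix codons and the promoter counts were added after the data were seen. One further protein-coding Hox gene of the annotation, and some genes and sequences that these rules would name, are not reported here. A comparison of homeodomain proteins was planned but not made, since no protein sequences were used here.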

Additional observations from a re-analysis of the deposited data

How the results depend on the processing

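Once mitochondrial genes and their copies were dropped from the TPM sum, means rose to 186 TPM for HoxA, 180 for HoxB, 53.8 for HoxC and 216 for HoxD, and to 38.9 TPM for the anterior, 350 for the central and 247 for the posterior class. The number at TPM 1 or more in both libraries was then 27, and it was 26 at TPM 0.5, 16 at TPM 2 and 19 at FPKM 1 or by posterior means. The share of protein-coding genes was not counted under these settings. These numbers therefore cannot be set against the 41.7% found with the deposited TPM at TPM 1. Each library alone gave 19 to 27 members, 50 to 112 TPM for HoxA, 43.7 to 119 for HoxB, 16 to 28.5 for HoxC and 65.7 to 110 for HoxD. For the classes it gave 10.1 to 24.1, 93.5 to 211 and 71.8 to 135 TPM, and 13 to 16 members led by a coding transcript. Leaving out members with same-strand overlap gave 12.2 TPM for HoxC.

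With total counts the members' median log2 ratio turned to 0.73. Of the members, 11 were then called higher in library 2 and 0 in library 1, against 49.4% and 4.62% of all genes. Adjusted p alone, without the 2-fold limit, called 11 members higher in library 1 and 6 in library 2. The shares of all genes were 39.6% and 44.5%. With the GC trend removed and the 2-fold limit kept, 20 members were called higher in library 1 and 0 in library 2, against 10.9% and 11.4% of all genes. Ratios that changed sign with total counts were 0.27 for Hoxa10, 0.73 for Hoxc6, 0.37 for Hoxb9, 0.64 for Hoxc5, 0.86 for Hoxc9, 0.33 for Hoxb7, 0.90 for Hoxd9, 0.72 for Hoxb3, 0.45 for Hoxd10, 0.65 for Hoxc4 and 0.31 for Hoxa3. With the GC trend removed they were -3.18 for Hoxb6, 0.49 for Hoxa10, -3.59 for Hoxa4, -1.30 for Hoxa11, -0.42 for Hoxa7, -2.13 for Hoxb4, -1.18 for Hoxb5, 0.34 for Hoxd11, 0.27 for Hoxd10, -1.12 for Hoxb8, -2.67 for Hoxb2, -1.83 for Hoxd3 and -1.25 for Hoxd4. Hoxd9, at -0.00, became 0.02 with DESeq2 size factors and 0.00 with posterior means. These shifts follow from the scaling or the trend itself; the cause of the trend was not tested. No paired analysis was possible because there is 1 group. A count of 0 sets the depth limit for 9 members in library 1 and 8 in library 2.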
